A study of Mus with 15 samples.

Results

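The 51 interferon-stimulated genes described here are the rows of the deposited gene matrix whose symbols stand on a list of well-known interferon targets and their controllers. All 51 were among the 55471 genes of the matrix, and all 51 passed the filter on low counts that left 16051 genes for testing. They were sorted by known role into 28 antiviral effectors, 7 interferon-inducible GTPases and 16 regulators. The GTPase class holds only guanylate-binding proteins and immunity-related GTPases (Gbp2, Gbp3, Gbp5, Gbp7, Igtp, Irgm1 and Iigp1). The dynamin-like GTPases Mx1 and Mx2 are counted among the effectors. The regulators are 4 nucleic acid sensors, 8 transcription factors and feedback genes, and 4 interferon receptor chains. RNA was sequenced from adipose tissue of wild type C57BL/6 mice labelled as 7 weeks old, in 5 fat grafts at day 7, 5 fat grafts at day 3 and 5 samples of control fat. No allele, agent or sex is given for any group, and the depot of the fat and the graft site are not stated in the labels. Whether the 5 samples of a group came from separate animals is not stated either, so p-values measure the spread between these samples, which may be technical.

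Interferons are secreted proteins that warn neighbouring cells of viruses and of misplaced nucleic acid. Type I interferons signal through the Ifnar1 and Ifnar2 chains to a complex containing Stat2 and Irf9 that switches on antiviral effectors, while interferon gamma signals through Ifngr1 and Ifngr2 and induces Irf1, which drives guanylate-binding proteins and antigen presentation. Many targets answer to both kinds, and fat tissue contains adipocytes, vessels, fibroblasts and macrophages that can all respond.

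Levels are given as CPM (estimated counts relative to the library size, with library sizes scaled by trimmed means of M-values) and changes as log2 fold changes ± SE from limma-voom with 5 samples per group, and p-values were adjusted by Benjamini and Hochberg's method across the 16051 genes. Genes count as called where the adjusted p is below 0.05. Depth was 20192200 to 31997959 estimated counts in day 7 grafts, 23736037 to 29366860 in day 3 grafts and 17109216 to 31845173 in controls, and the smallest value of any member in a library was 43 counts, or 1.81 CPM, for Ifitm1 in control 4. The mean log2(CPM + 1) over 8 adipocyte markers, which check the tissue label, was 4.71 to 5.75 in day 7 grafts, 5.91 to 7.75 in day 3 grafts and 8.61 to 10.43 in controls. Over 6 lymph node markers it was 0.58 to 1.70 in the 10 grafts, 2.45 in control 4 and 5.87 to 6.42 in controls 1, 2, 3 and 5. Day 7 graft 5 stood apart among the interferon-stimulated genes, being the lowest of the day 7 grafts for 37 of 51 members. Mitochondrially encoded transcripts took 2.17 to 2.89% of the counts in day 7 grafts, 2.35 to 4.02% in day 3 grafts and 9.01 to 14.9% in controls, with no overlap between grafts and controls, and their part in the differences from control was not tested. In whole-tissue RNA, fewer cells of a type and less RNA per cell cannot be told apart.

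**Figure D1:**
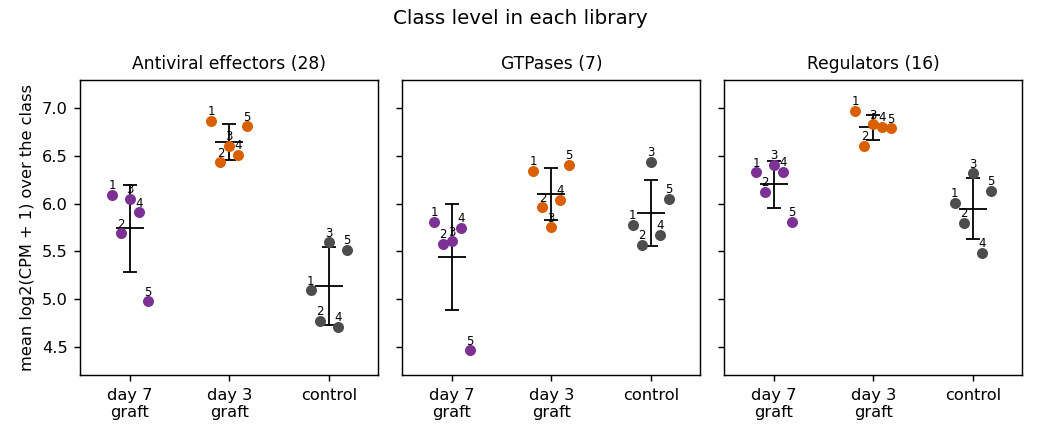
Mean log2(CPM + 1) over the 28 antiviral effectors, 7 GTPases and 16 regulators (vertical axis) in each library, with the replicate number above each point and bars for the group mean ± SD (n = 5). Effector and regulator scores of the 5 day 3 grafts lie above those of all 5 controls, while the GTPase scores of the 3 groups overlap.

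The count of called members was not spread evenly over the 3 classes. At day 3, 26 of 28 effectors and 11 of 16 regulators were higher than in control fat, but 1 of 7 GTPases was. At day 7, 12 of 28 effectors, 5 of 16 regulators and 0 of 7 GTPases were higher in limma-voom (0 GTPases also at an unadjusted p under 0.05 and in limma-trend on log2(CPM + 1)), and 2 effectors, 2 regulators and 2 GTPases were lower. Among all tested genes, 30.1% were higher and 30.2% lower at day 3, and 32.3% were higher and 28.4% lower at day 7, so the day 7 counts of higher regulators and of lower GTPases were near the background. The effector score was 6.09, 5.69, 6.05, 5.91 and 4.98 in day 7 grafts 1 to 5, 6.87, 6.43, 6.61, 6.51 and 6.81 in day 3 grafts 1 to 5, and 5.09, 4.77, 5.60, 4.71 and 5.52 in controls 1 to 5. Day 3 grafts lay above every other library, and day 7 graft 5 was within the range of the controls while the other 4 day 7 grafts were above it. The GTPase score was 5.81, 5.58, 5.61, 5.75 and 4.46 in day 7 grafts 1 to 5, 6.34, 5.96, 5.75, 6.04 and 6.41 in day 3 grafts 1 to 5, and 5.77, 5.57, 6.44, 5.68 and 6.05 in controls 1 to 5. Control 3 had the highest GTPase score of all 15 libraries and day 7 graft 5 the lowest. Both graft groups were compared with the same 5 controls, so the day 3 and day 7 results are not independent, and the classes themselves were not tested against each other.

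In day 3 grafts against controls, 38 of 51 members were higher and 3 were lower, where 30.1% of all tested genes were higher and 30.2% were lower. The median log2 fold change was 1.25 over the 51 members, 1.64 over effectors, 0.31 over GTPases and 1.06 over regulators, beside -0.01 over all tested genes. At least a 2-fold rise was called for 30 members, 22 of them effectors and 8 regulators, against 16.8% of all tested genes. For 31 members every day 3 graft lay above every control, which held for 20.6% of all tested genes. Without control 4, 35 members were higher and 5 lower.

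In day 7 grafts against controls, 17 of 51 members were higher and 6 were lower, beside 32.3% and 28.4% of all tested genes. That share of higher members is close to the background, and so is the count of 9 members that were at least 2-fold higher, where 18.5% of tested genes were. The median log2 fold change was 0.30 over the members, 0.68 over effectors, -0.32 over GTPases and 0.21 over regulators, beside 0.03 over all tested genes. Without day 7 graft 5, 23 members were higher and 6 lower.

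In day 7 grafts against day 3 grafts, 18 of 51 members were lower and 0 were higher in limma-voom, beside 1.71% and 3.18% of all tested genes. At an unadjusted p under 0.05 the counts were 37 and 0, and limma-trend on log2(CPM + 1) also called 0 higher. The log2 fold change was below 0 for 50 of 51 members, with a median of -0.76 over the members and 0.02 over all tested genes. For 30 members every day 7 graft lay below every day 3 graft, against 3.33% of all tested genes. The lower members were 12 of 28 effectors, 1 of 7 GTPases and 5 of 16 regulators. The count of 18 was sensitive to single libraries, with 11 lower members without day 3 graft 1, 8 without day 3 graft 3, 10 without day 3 graft 4, 7 without day 3 graft 5 and 6 without day 7 graft 2. Of the 18, Bst2, Zbp1, Irf7, Usp18, Parp9 and Ifi35 were called whichever single library was left out. On log2(TPM + 1), 4 members were lower.

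Over the whole course, 17 members were called higher than control at both times, 20 were higher at day 3 and not called at day 7, and Ifi35 was higher at day 3 and lower at day 7. Ifi27, Irf1 and Irf3 were lower at both times. Gbp5 and Igtp were lower at day 7 and not called at day 3, and 8 members passed the test at neither time. Of all tested genes, 30.1% were higher and 30.2% lower at day 3, and 32.3% and 28.4% at day 7. The share of all tested genes with each joint pattern was not computed, so these counts are descriptions.

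**Figure D2:**
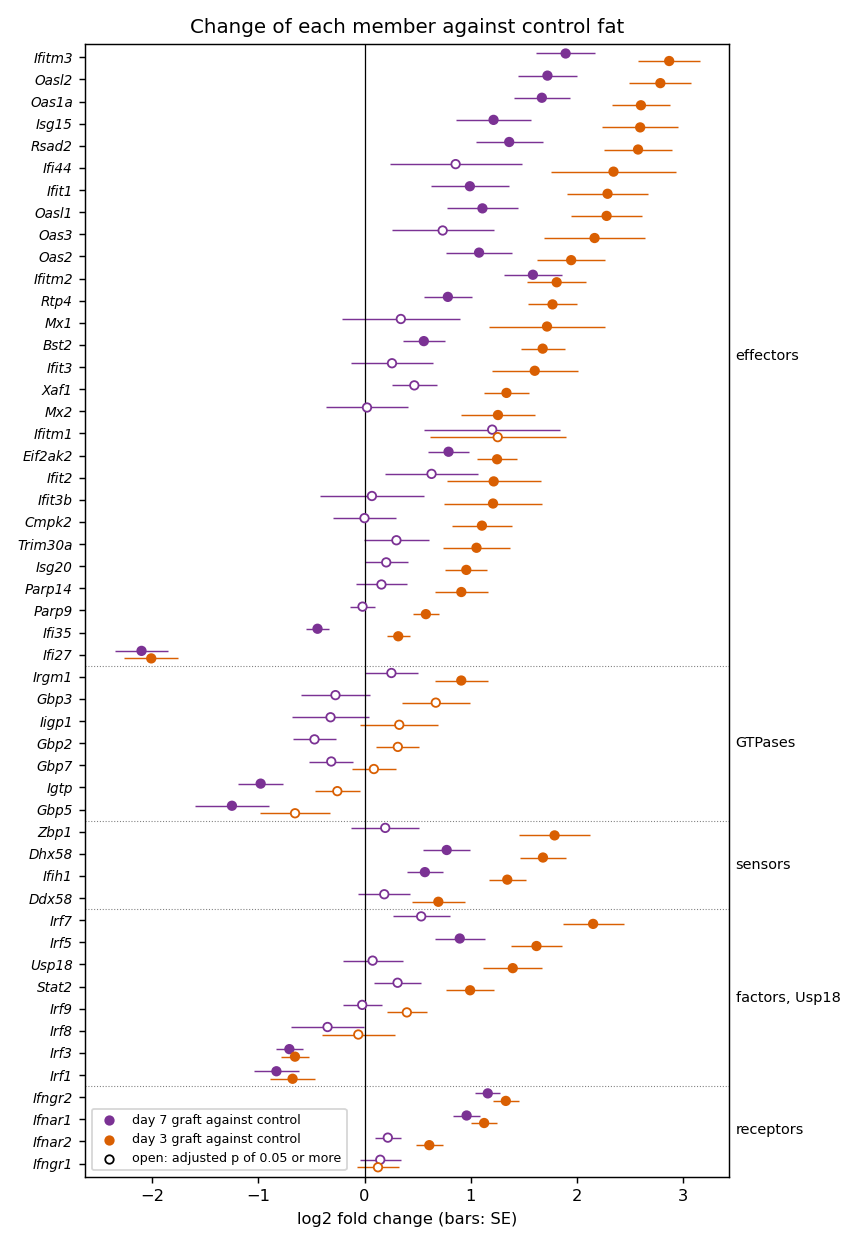
Log2 fold change against control (horizontal axis, bars ± SE) of each of the 51 members in day 7 grafts and day 3 grafts, grouped by role, with open points where the adjusted p was 0.05 or more. Day 3 points lie right of day 7 points for most effectors and sensors, the GTPases lie from -1.25 (Gbp5) to 0.25 (Irgm1) at day 7 and from -0.65 (Gbp5) to 0.91 (Irgm1) at day 3, and Ifi27, Irf1 and Irf3 lie left of 0 at both times.

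Per unit of transcript length, a pair of membrane proteins dominated the class in grafts. Ifitm2 and Ifitm3, which sit in endosomal membranes and hinder the fusion of entering viruses, took 46.9 ± 6.74% of the summed TPM of the 51 members in day 7 grafts, 43.9 ± 3.67% in day 3 grafts and 20.6 ± 8.01% in controls (SD, n = 5). The summed TPM was 5407 ± 870 in day 7 grafts, 8116 ± 898 in day 3 grafts and 2986 ± 690 in controls. In controls the most abundant member was Ifi27, a small hydrophobic membrane protein, at 25.5 ± 9.33% of the sum, against 4.15 ± 0.766% in day 7 grafts and 2.84 ± 1.14% in day 3 grafts. These are shares of deposited TPM, and reads of the near-identical Ifitm genes may have been split between them by the counting.

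Among the effectors, Ifitm3 showed the largest rise at both times. Ifitm3 had 426, 289, 431, 300.1 and 391 CPM in day 7 grafts 1 to 5, 767, 617, 733, 781 and 664 CPM in day 3 grafts 1 to 5, and 69.2, 66.4, 74.7, 124 and 207 CPM in controls 1 to 5. Every day 3 graft exceeded every day 7 graft, and every day 7 graft exceeded every control. The change was 1.89 ± 0.28 (adjusted p = 4.11e-05) at day 7 and 2.87 ± 0.29 (adjusted p = 1.77e-06) at day 3, a 6.58-fold ratio of mean CPM at day 3. The difference between day 7 and day 3, -0.98 ± 0.31 (adjusted p = 0.0851), missed the threshold although the libraries did not overlap. Ifitm2 was higher by 1.59 ± 0.27 (adjusted p = 1.80e-04) at day 7 and by 1.81 ± 0.28 (adjusted p = 6.53e-05) at day 3, with graft times that overlapped. Ifitm1, between them on chromosome 7, ranged from 12.3 to 48.5 CPM in day 7 grafts, 13.9 to 38.5 CPM in day 3 grafts and 1.81 to 33.5 CPM in controls and was not called in any comparison. Without control 5 it was called at day 7 (adjusted p = 0.0465) and day 3 (adjusted p = 0.0408), and the difference of Ifitm3 between day 7 and day 3 was called as well (adjusted p = 0.0132).

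The oligoadenylate synthetases sense double-stranded RNA and make the messenger that activates RNase L. Oas1a had 82.002, 65.4, 92.7, 78.8 and 46.3 CPM in day 7 grafts 1 to 5, 188, 91.1, 148, 134 and 133 CPM in day 3 grafts 1 to 5, and 20.2, 12.8, 26.6, 19.3 and 39.01 CPM in controls 1 to 5. All 10 grafts were above all 5 controls, and the graft times overlapped through day 3 graft 2 and day 7 graft 3. The change was 1.67 ± 0.27 (adjusted p = 9.03e-05) at day 7 and 2.60 ± 0.27 (adjusted p = 2.41e-06) at day 3, and -0.93 ± 0.26 (adjusted p = 0.0496) at day 7 against day 3, a difference that missed the threshold under 18 of 26 alternatives. Oasl2 had 220.4, 158, 249.5, 191 and 82.1 CPM in day 7 grafts 1 to 5, 438, 288, 350.2, 328 and 368 CPM in day 3 grafts 1 to 5, and 38.2, 36.5, 56.5, 48.7 and 88.7 CPM in controls 1 to 5. Day 7 graft 5 was the one graft inside the control range, and day 3 grafts were above all others. Oasl2 changed by 1.72 ± 0.28 (adjusted p = 1.04e-04) at day 7 and 2.79 ± 0.29 (adjusted p = 2.43e-06) at day 3. Its relatives on chromosome 5 were higher at day 3 as well, Oas2 by 1.95 ± 0.32 (adjusted p = 1.12e-04), Oas3 by 2.17 ± 0.47 (adjusted p = 0.00117) and Oasl1 by 2.28 ± 0.33 (adjusted p = 4.47e-05), and Oas2 and Oasl1 were also higher at day 7. Oas1a shares much of its sequence with Oas1g and other copies beside it, so the split of reads between them is uncertain.

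Isg15, a ubiquitin-like protein that is attached to newly made proteins during infection, and Rsad2, which makes a nucleotide that stops viral RNA synthesis, rose at both times and were lower at day 7 than at day 3. Isg15 had 45.96, 36.3, 47.5, 42.4 and 12.9 CPM in day 7 grafts 1 to 5, 98.5, 71.3, 76.6, 78.9 and 122 CPM in day 3 grafts 1 to 5, and 12.9, 9.92, 20.8, 11.4 and 20.3 CPM in controls 1 to 5. Day 7 graft 5 lay within the controls, the other 4 day 7 grafts lay above them, and all day 3 grafts were higher than any other library. Isg15 changed by 1.21 ± 0.36 (adjusted p = 0.00871) at day 7 against control, by 2.60 ± 0.36 (adjusted p = 2.61e-05) at day 3 against control and by -1.38 ± 0.31 (adjusted p = 0.0226) at day 7 against day 3. Rsad2 had 83.6, 47.2, 52.3, 61.5 and 26.7 CPM in day 7 grafts 1 to 5, 146, 87.9, 127, 94.4 and 146 CPM in day 3 grafts 1 to 5, and 13.2, 11.3, 27.5, 22.8 and 28.6 CPM in controls 1 to 5. Again day 7 graft 5 lay among the controls, and no day 3 graft overlapped with another group. Rsad2 changed by 1.36 ± 0.32 (adjusted p = 0.00182) at day 7, by 2.58 ± 0.32 (adjusted p = 1.13e-05) at day 3 and by -1.21 ± 0.29 (adjusted p = 0.0315) at day 7 against day 3. The calls of both genes between day 7 and day 3 were lost without day 3 graft 5 or day 7 graft 2, with adjusted p-values of up to 0.0600 for Isg15 and 0.0797 for Rsad2 over the omissions of 1 library. That of Rsad2 was also lost without day 3 grafts 1, 3 or 4 or day 7 grafts 3 or 4.

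Bst2, also called tetherin, holds budding virus particles at the cell surface. Bst2 had 46.6, 85.1, 101, 79.7 and 60.4 CPM in day 7 grafts 1 to 5, 180.3, 158, 134, 128 and 189 CPM in day 3 grafts 1 to 5, and 43.5, 35.3, 55.1, 58.1 and 55.01 CPM in controls 1 to 5. All day 3 grafts were above the rest, and day 7 grafts 1 and 5 lay near or within the controls. Bst2 changed by 0.56 ± 0.20 (adjusted p = 0.0249) at day 7, 1.68 ± 0.21 (adjusted p = 9.70e-06) at day 3 and -1.12 ± 0.21 (adjusted p = 0.00898) at day 7 against day 3. The call at day 7 against control was lost without control 1, control 2 or day 7 grafts 2, 3 or 4, with adjusted p-values of up to 0.0706.

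Other effectors were higher at day 3 and overlapped with the controls at day 7. Mx2 had 10.4, 9.37, 10.1, 9.64 and 3.46 CPM in day 7 grafts 1 to 5, 18.7, 19.8, 18.4, 14.2 and 25.7 CPM in day 3 grafts 1 to 5, and 8.11, 6.61, 16.9, 3.62 and 9.70 CPM in controls 1 to 5. Day 3 grafts were above all day 7 grafts and overlapped with control 3. Mx2, a dynamin-like GTPase that blocks viruses, changed by 0.02 ± 0.39 (adjusted p = 0.962) at day 7, by 1.26 ± 0.35 (adjusted p = 0.00628) at day 3 and by -1.23 ± 0.33 (adjusted p = 0.0441) at day 7 against day 3, the last of which was lost without control 1, control 2, any day 3 graft or day 7 grafts 1 to 4 (adjusted p up to 0.0988). Isg20 had 14.4, 10.97, 20.01, 18.5 and 19.7 CPM in day 7 grafts 1 to 5, 22.5, 33.9, 22.7, 32.8 and 26.9 CPM in day 3 grafts 1 to 5, and 12.2, 12.01, 17.1, 17.1 and 12.4 CPM in controls 1 to 5. Every day 3 graft exceeded every other library. Isg20, an exonuclease that degrades RNA, changed by 0.20 ± 0.20 (adjusted p = 0.400) at day 7, 0.96 ± 0.20 (adjusted p = 7.28e-04) at day 3 and -0.75 ± 0.18 (adjusted p = 0.0302) at day 7 against day 3, and this last call was lost without day 3 grafts 2, 4 or 5 or day 7 grafts 1, 2 or 4 (adjusted p up to 0.0811).

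Parp9 and Ifi35 moved by less but with a narrow spread. Parp9 had 87.4, 78.97, 90.3, 86.7 and 59.6 CPM in day 7 grafts 1 to 5, 137, 100.3, 121, 119.5 and 127 CPM in day 3 grafts 1 to 5, and 80.4, 74.6, 92.99, 74.3 and 82.8 CPM in controls 1 to 5. Day 3 grafts were above all other libraries, and day 7 grafts fell among or below the controls. Parp9, which acts with the ubiquitin ligase Dtx3l, changed by -0.02 ± 0.12 (adjusted p = 0.898) at day 7, 0.58 ± 0.12 (adjusted p = 9.30e-04) at day 3 and -0.60 ± 0.12 (adjusted p = 0.0144) at day 7 against day 3. Ifi35 had 34.3, 32.9, 41.5, 36.8 and 28.2 CPM in day 7 grafts 1 to 5, 65.8, 56.97, 58.6, 52.7 and 58.7 CPM in day 3 grafts 1 to 5, and 47.1, 40.9, 53.6, 43.7 and 49.8 CPM in controls 1 to 5. Day 7 grafts were below all day 3 grafts, and the controls lay between with some overlap on both sides. Ifi35, which binds the interferon-induced protein Nmi, was the 1 member that was higher at day 3, 0.32 ± 0.11 (adjusted p = 0.0204), and lower at day 7, -0.44 ± 0.11 (adjusted p = 0.00284). The day 3 call was lost without control 2 (adjusted p = 0.0582). Parp9 and Dtx3l are annotated on opposite strands of the same stretch, with Dtx3l holding 73.9% as many counts, and the strand setting of the counting is not stated.

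Ifi27 was the exception among effectors. Ifi27 had 69.4, 85.5, 81.5, 73.2 and 80.6 CPM in day 7 grafts 1 to 5, 48.3, 122, 84.97, 89.4 and 87.8 CPM in day 3 grafts 1 to 5, and 391, 322, 222, 591 and 251 CPM in controls 1 to 5. All 10 grafts were below all 5 controls, whose highest value was in control 4. The change was -2.10 ± 0.25 (adjusted p = 7.13e-06) at day 7 and -2.01 ± 0.25 (adjusted p = 1.17e-05) at day 3, a ratio of mean CPM of 0.220 and 0.243. Between day 7 and day 3 the difference was -0.09 ± 0.24 (adjusted p = 0.884). Adipocyte markers were lower in grafts as well. At day 7, 8 of 8 were lower (median log2 fold change -4.24), and at day 3, 8 of 8 (median -2.39). Of all tested genes, 28.4% were lower at day 7 and 30.2% at day 3. The part of adipocytes in the level of Ifi27 was not tested.

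The 4 Ifit genes, which bind foreign or unmodified viral RNA, lie side by side at positions 34550694 to 34650009 of chromosome 19 (mm10). Their median log2 fold change was 0.44 at day 7 and 1.41 at day 3. Ifit1 was higher at both times, by 0.99 ± 0.37 (adjusted p = 0.0304) at day 7 and 2.29 ± 0.38 (adjusted p = 1.28e-04) at day 3. Ifit2, Ifit3 and Ifit3b were higher at day 3, by 1.22, 1.60 and 1.21 on the log2 scale, and were not called at day 7. None of these 3 was called between day 7 and day 3 (adjusted p of 0.493, 0.0715 and 0.146). Without day 7 graft 5, Ifit2 (adjusted p = 0.0236) and Ifit3 (adjusted p = 0.0452) were called higher at day 7 against control, and Ifit3 was called lower at day 7 than at day 3 without that graft or without control 4 (adjusted p as low as 0.0486). The calls of Ifit1 at day 7 and of Ifit2 and Ifit3b at day 3 were lost under 7, 6 and 6 of the 15 omissions of 1 library, with adjusted p-values of up to 0.0783, 0.0681 and 0.0694. All 4 were lowest in day 7 graft 5 among the day 7 grafts. Ifit3 and Ifit3b are close copies, so reads may have been assigned to either. Of the remaining effectors, Eif2ak2, the kinase PKR that halts translation on sensing double-stranded RNA, and Rtp4 were higher at both times. Ifi44, Oas3, Mx1, Xaf1, Cmpk2, Trim30a and Parp14 were called at day 3 and not at day 7. Without day 7 graft 5, Ifi44 (adjusted p = 0.00155) and Xaf1 (adjusted p = 0.00199) were called higher at day 7 as well, and Xaf1 also without control 3 (adjusted p = 0.0264).

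**Figure D3:**
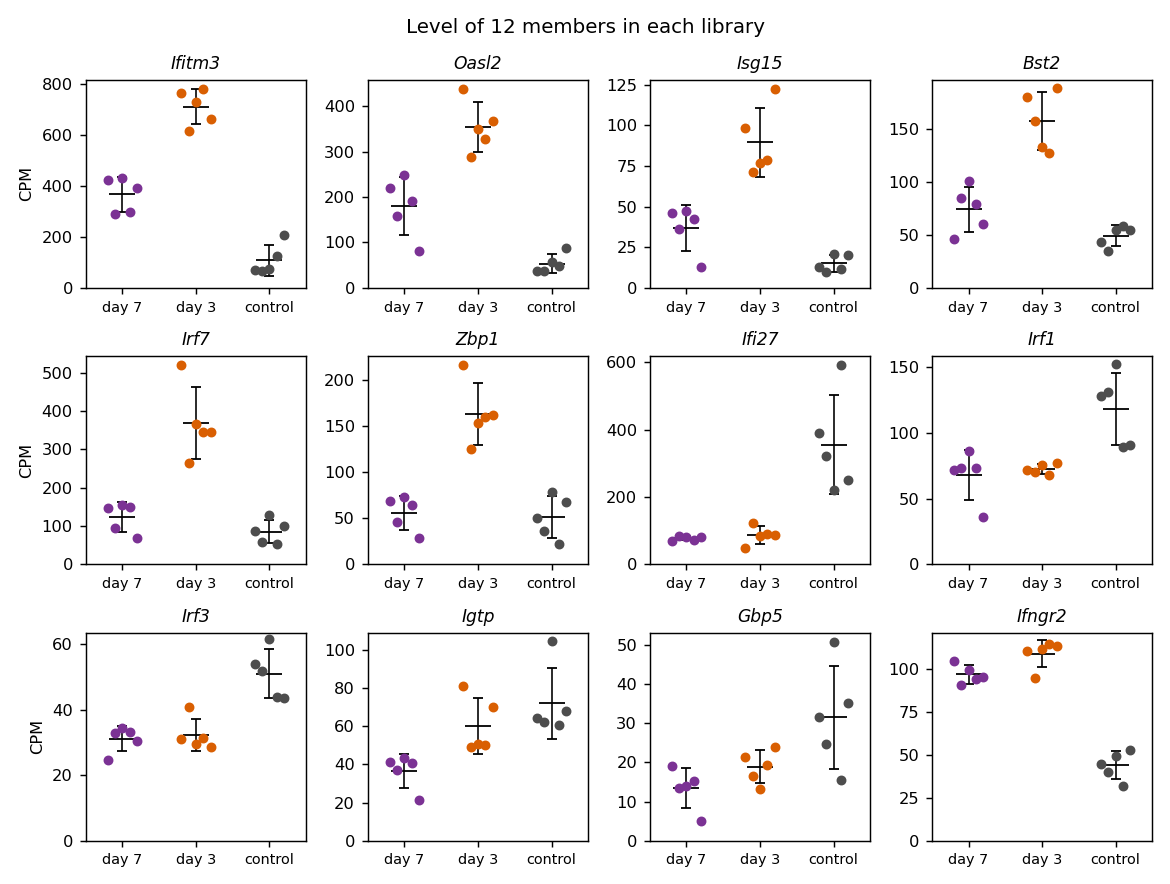
CPM (vertical axes, each from 0) of 12 members in each of the 5 day 7 grafts, 5 day 3 grafts and 5 controls, with bars for the mean ± SD. Day 3 grafts are highest for Ifitm3, Oasl2, Isg15, Bst2, Irf7 and Zbp1, grafts of both times are below controls for Ifi27, Irf1 and Irf3, and above them for Ifngr2.

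The guanylate-binding proteins and immunity-related GTPases coat the vacuoles of intracellular bacteria and parasites and are classic targets of interferon gamma. At day 3 Irgm1 was higher and the other 6 were not called, and at day 7 Igtp and Gbp5 were lower and the other 5 were not called. The 4 Gbp members lie together at positions 142493978 to 142638008 of chromosome 3 (mm10), with a median log2 fold change of -0.39 at day 7 and 0.20 at day 3.

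Irgm1 had 104, 92.9, 100.4, 97.4 and 48.5 CPM in day 7 grafts 1 to 5, 169.7, 112, 125, 117 and 160.2 CPM in day 3 grafts 1 to 5, and 73.9, 62.1, 113, 44.2 and 82.9 CPM in controls 1 to 5. Day 3 grafts overlapped with the controls through control 3 and with no day 7 graft. Irgm1, which restrains the other immunity-related GTPases, changed by 0.25 ± 0.25 (adjusted p = 0.388) at day 7 and 0.91 ± 0.25 (adjusted p = 0.00601) at day 3. Igtp had 41.4, 37.2, 43.3, 40.8 and 21.4 CPM in day 7 grafts 1 to 5, 80.9, 49.2, 50.9, 50.1 and 70.04 CPM in day 3 grafts 1 to 5, and 64.4, 62.1, 105, 60.5 and 68.2 CPM in controls 1 to 5. Day 7 grafts were below every control and every day 3 graft. Igtp, also called Irgm3, changed by -0.98 ± 0.21 (adjusted p = 0.00119) at day 7 and -0.26 ± 0.21 (adjusted p = 0.310) at day 3, and its difference between day 7 and day 3 was -0.72 ± 0.21 (adjusted p = 0.0671). Its annotation overlaps on the same strand with Irgm2, which held 152% as many counts and changed by -0.31 ± 0.22 (adjusted p = 0.236) at day 7, so the share of reads assigned to each is uncertain.

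Gbp5 had 19.01, 13.5, 14.01, 15.2 and 5.08 CPM in day 7 grafts 1 to 5, 21.4, 16.5, 13.1, 19.4 and 23.9 CPM in day 3 grafts 1 to 5, and 31.5, 24.6, 50.7, 15.4 and 34.98 CPM in controls 1 to 5. Day 7 grafts 2 to 5 lay below the lowest control, control 4, and the remaining day 7 graft did not. Gbp5, which promotes assembly of the NLRP3 inflammasome, changed by -1.25 ± 0.35 (adjusted p = 0.00616) at day 7 and -0.65 ± 0.33 (adjusted p = 0.0964) at day 3. Without control 4 or without day 7 graft 5 the day 3 difference was called as well, at an adjusted p as low as 0.0169. Gbp2 had 70.6, 66.99, 63.4, 66.6 and 32.6 CPM in day 7 grafts 1 to 5, 93.98, 106, 85.5, 103 and 113 CPM in day 3 grafts 1 to 5, and 70.5, 64.3, 107, 95.1 and 72.4 CPM in controls 1 to 5. Every day 7 graft was below every day 3 graft, and the controls overlapped with both. Gbp2, which attacks the vacuoles of parasites and bacteria, changed by -0.47 ± 0.20 (adjusted p = 0.0532) at day 7, by 0.31 ± 0.20 (adjusted p = 0.193) at day 3 and by -0.78 ± 0.20 (adjusted p = 0.0394) at day 7 against day 3. That last call was lost under 14 of 26 alternatives, among them every omission of 1 day 3 graft, of control 1 or of day 7 grafts 1 to 4 (adjusted p up to 0.0915). Gbp3, Gbp7 and Iigp1 were not called in any comparison, although Gbp3 was higher in every day 3 graft than in any control, and without day 7 graft 5 its day 3 difference was called (adjusted p = 0.00193).

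Another 12 GTPases of the same families, no members of the list, were all tested. At day 7, 9 were lower and 3 were not called, with a median log2 fold change of -2.17. At day 3, 6 were lower and 6 were not called, with a median of -1.79. Of all tested genes, 28.4% were lower at day 7 and 30.2% at day 3. Gbp4 averaged 17.8 ± 7.12 CPM in day 7 grafts, 15.8 ± 5.83 CPM in day 3 grafts and 79.98 ± 37.9 CPM in controls. It changed by -2.19 ± 0.40 (adjusted p = 2.98e-04) at day 7 and -2.27 ± 0.41 (adjusted p = 2.68e-04) at day 3. Gbp10 changed by -4.63 ± 0.79 (adjusted p = 1.53e-04) at day 7, and Tgtp1 by -3.11 ± 0.61 (adjusted p = 5.03e-04) at day 3. Many of these are close copies of one another and reads may have been split between them.

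Lymphocyte transcripts were lower in the same grafts. The 8 T cell markers had a mean log2(CPM + 1) of 0.82 to 1.70 in day 7 grafts, 0.67 to 1.09 in day 3 grafts and 1.82 to 6.23 in controls, and all 8 were lower at both times, with median log2 fold changes of -4.56 at day 7 and -5.85 at day 3. The 8 B cell markers, all lower at both times, had scores of 1.28 to 1.96 in day 7 grafts, 0.66 to 1.22 in day 3 grafts and 4.62 to 8.29 in controls. Of 6 natural killer cell markers, 1 was lower at day 3, and at day 7 limma-voom called 0 (1 at an unadjusted p under 0.05, and 2 lower in limma-trend on log2(CPM + 1)). Without control 4, 2 of them were lower at each time. With all 15 samples, 28.4% of all tested genes were lower at day 7 and 30.2% at day 3. Control 4, with the lowest T cell score of the controls, had a GTPase score of 5.68, inside the range of the others. It was the lowest control for 3 of 7 GTPases. Control 3 had the highest B cell score (8.29), lymph node score (6.42) and GTPase score (6.44) of the controls. The part of lymphocytes and lymph node tissue in the GTPase levels was not tested.

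The cytosolic sensors that detect viral or misplaced nucleic acid were mostly highest at day 3. All 4 were higher than control at day 3, 2 were higher at day 7, and 3 were lower at day 7 than at day 3. Of all tested genes, 30.1% were higher at day 3, 32.3% were higher at day 7 and 1.71% were lower between the graft times. With only 4 sensors, the 2 that were higher at day 7 are not far from the background. Zbp1 had 68.9, 45.7, 72.99, 64.001 and 28.9 CPM in day 7 grafts 1 to 5, 216, 124, 153, 159 and 162 CPM in day 3 grafts 1 to 5, and 50.3, 36.5, 78.5, 22.02 and 67.6 CPM in controls 1 to 5. Day 3 grafts were above all other libraries and day 7 grafts lay within the control range. Zbp1, which binds Z-form nucleic acid and can trigger necroptosis, changed by 0.19 ± 0.32 (adjusted p = 0.614) at day 7, 1.79 ± 0.33 (adjusted p = 3.47e-04) at day 3 and -1.59 ± 0.33 (adjusted p = 0.0152) at day 7 against day 3. Ifih1 had 70.9, 49.8, 63.1, 67.5 and 39.9 CPM in day 7 grafts 1 to 5, 119.6, 74.5, 102, 90.5 and 107 CPM in day 3 grafts 1 to 5, and 35.2, 30.5, 38.6, 43.03 and 46.01 CPM in controls 1 to 5. Only day 7 graft 5 overlapped with the controls, and day 3 grafts were above all others. Ifih1, the MDA5 sensor of long double-stranded RNA, changed by 0.57 ± 0.17 (adjusted p = 0.0104) at day 7, 1.34 ± 0.17 (adjusted p = 1.56e-05) at day 3 and -0.78 ± 0.17 (adjusted p = 0.0206) at day 7 against day 3, where the call was lost without day 3 graft 3, day 3 graft 5 or day 7 graft 2 (adjusted p up to 0.0637).

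Dhx58 had 44.1, 36.1, 48.3, 45.8 and 30.5 CPM in day 7 grafts 1 to 5, 103, 57.8, 79.5, 75.005 and 69.4 CPM in day 3 grafts 1 to 5, and 23.1, 20.3, 33.2, 14.7 and 32.1 CPM in controls 1 to 5. Day 3 grafts again stood above the rest, and day 7 graft 5 fell within the controls. Dhx58, or LGP2, which tunes the other RNA helicases, changed by 0.77 ± 0.22 (adjusted p = 0.00714) at day 7, 1.68 ± 0.22 (adjusted p = 1.71e-05) at day 3 and -0.91 ± 0.21 (adjusted p = 0.0239) at day 7 against day 3, where the call was lost without day 3 graft 3, day 3 graft 4 or day 7 graft 2 (adjusted p up to 0.0697). Ddx58 had 122, 93.6, 126, 108 and 49.8 CPM in day 7 grafts 1 to 5, 174, 116, 122, 129 and 142 CPM in day 3 grafts 1 to 5, and 94.2, 79.6, 119, 52.2 and 86.2 CPM in controls 1 to 5. All 3 groups overlapped. Ddx58, the RIG-I sensor of short RNA with a triphosphate end, changed by 0.19 ± 0.25 (adjusted p = 0.528) at day 7 and 0.69 ± 0.25 (adjusted p = 0.0261) at day 3, and the day 3 call was lost without control 4 or without day 3 graft 1 (adjusted p up to 0.0620).

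Irf7, the factor that amplifies interferon alpha production, had the largest rise of the regulators at day 3. Irf7 had 148, 94.01, 156, 150.5 and 69.03 CPM in day 7 grafts 1 to 5, 520.1, 265, 368, 347 and 347 CPM in day 3 grafts 1 to 5, and 86.95, 58.9, 128, 53.6 and 101 CPM in controls 1 to 5. Day 3 grafts were the highest, and day 7 grafts overlapped with controls. Irf7 changed by 0.53 ± 0.27 (adjusted p = 0.0998) at day 7, 2.15 ± 0.29 (adjusted p = 1.94e-05) at day 3 and -1.62 ± 0.29 (adjusted p = 0.00851) at day 7 against day 3, with a 4.31-fold ratio of mean CPM at day 3 against control. Without day 7 graft 5 or without control 3 the day 7 difference from control was called (adjusted p as low as 0.0284). The Irf7 annotation overlaps with Phrf1 on the opposite strand, which held 28.3% as many counts. Irf5 had 71.4, 75.9, 72.9, 81.7 and 78.2 CPM in day 7 grafts 1 to 5, 145, 91.6, 153, 132 and 115 CPM in day 3 grafts 1 to 5, and 44.3, 40.3, 59.6, 19.7 and 54.6 CPM in controls 1 to 5. All 10 grafts were above all 5 controls, and day 3 grafts above day 7 grafts. Irf5, which acts downstream of Toll-like receptors in macrophages, changed by 0.90 ± 0.24 (adjusted p = 0.00450) at day 7 and 1.62 ± 0.24 (adjusted p = 5.31e-05) at day 3. It shares its stretch with Tnpo3 on the opposite strand, which held 104% as many counts.

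Usp18 had 33.4, 25.4, 30.4, 34.4 and 12.1 CPM in day 7 grafts 1 to 5, 68.6, 54.7, 57.2, 59.7 and 79.9 CPM in day 3 grafts 1 to 5, and 25.1, 19.4, 40.4, 16.4 and 24.9 CPM in controls 1 to 5. Every day 3 graft was above every other library. Usp18, which removes Isg15 from proteins and dampens signalling at Ifnar2, changed by 0.08 ± 0.28 (adjusted p = 0.828) at day 7, 1.40 ± 0.28 (adjusted p = 5.66e-04) at day 3 and -1.32 ± 0.27 (adjusted p = 0.0133) at day 7 against day 3. Stat2 had 101, 96.4, 122, 112 and 53.5 CPM in day 7 grafts 1 to 5, 188, 145, 141, 120.2 and 163 CPM in day 3 grafts 1 to 5, and 75.6, 62.4, 103, 53.9 and 90.9 CPM in controls 1 to 5. Day 3 grafts were above all controls, and overlapped with day 7 graft 3. Stat2, a partner of Irf9 in type I signalling, changed by 0.31 ± 0.22 (adjusted p = 0.232) at day 7 and 0.99 ± 0.22 (adjusted p = 0.00152) at day 3. Without day 7 graft 5 it was called at day 7 as well (adjusted p = 0.0302). Irf9 was not called, at -0.02 ± 0.18 (adjusted p = 0.924) at day 7 and 0.40 ± 0.19 (adjusted p = 0.0768) at day 3, where without control 3 the call was made (adjusted p = 0.0151). The Irf9 annotation overlaps on the same strand with Rnf31, which held 36.8% as many counts.

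The factors Irf1 and Irf3 went the other way. Irf1 had 71.97, 72.96, 85.9, 73.4 and 35.8 CPM in day 7 grafts 1 to 5, 71.8, 70.2, 75.4, 68.1 and 77.01 CPM in day 3 grafts 1 to 5, and 128, 131, 153, 89.2 and 90.7 CPM in controls 1 to 5. All 10 grafts were below all 5 controls, and the highest graft was close to controls 4 and 5. Irf1, a factor induced by interferon gamma that drives the GTPases and antigen presentation, changed by -0.83 ± 0.21 (adjusted p = 0.00315) at day 7 and -0.68 ± 0.21 (adjusted p = 0.0114) at day 3. Irf3 had 24.8, 32.9, 34.5, 33.4 and 30.4 CPM in day 7 grafts 1 to 5, 31.3, 40.8, 29.7, 31.4 and 28.7 CPM in day 3 grafts 1 to 5, and 53.97, 51.98, 61.8, 44.04 and 43.7 CPM in controls 1 to 5. Again no graft reached the lowest control. Irf3, which is present in resting cells and activated by phosphorylation downstream of the sensors, changed by -0.71 ± 0.13 (adjusted p = 2.68e-04) at day 7 and -0.66 ± 0.13 (adjusted p = 5.19e-04) at day 3. The Irf3 annotation overlaps with Bcl2l12 on the opposite strand, which held 15.6% as many counts. In limma-voom Bcl2l12 changed by -0.38 ± 0.18 (adjusted p = 0.0795) at day 7 and -0.55 ± 0.18 (adjusted p = 0.0177) at day 3. Irf8, a factor of myeloid and B cells, was not called, with 21.9 CPM in control 4 and 78.6 to 125 CPM in the other controls. Without control 4 it was lower at both times, by -0.76 at day 7 and -0.46 at day 3 on the log2 scale. Its annotation overlaps on the same strand with Gm20388, which held 173% as many counts.

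The lower calls depended on the scale. On log2(TPM + 1) the median of all tested genes was 0.33 higher in day 7 grafts and 0.22 higher in day 3 grafts than in controls, and of the 6 members that were lower at day 7, Ifi27 alone passed the test. On that scale the day 7 change was -0.42 for Irf1 (adjusted p = 0.200), -0.33 for Irf3 (adjusted p = 0.135), -0.56 for Igtp (adjusted p = 0.0931), -0.75 for Gbp5 (adjusted p = 0.0943) and -0.10 for Ifi35 (adjusted p = 0.639), all by limma. Relative to the median of all tested genes these were -0.75, -0.66, -0.90, -1.08 and -0.44, against -0.86, -0.74, -1.01, -1.28 and -0.47 on the CPM scale. At day 3 Irf3 remained lower on log2(TPM + 1), at -0.46 (adjusted p = 0.0442), and Irf1 did not, at -0.38 (adjusted p = 0.256).

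A pair of receptor chains, one for each kind of interferon, were higher at both times. Ifngr2 had 105, 90.7, 99.1, 94.04 and 95.2 CPM in day 7 grafts 1 to 5, 110.3, 94.97, 112, 114 and 113 CPM in day 3 grafts 1 to 5, and 44.6, 40.1, 49.5, 32.2 and 53.02 CPM in controls 1 to 5. No graft overlapped with a control, the lowest graft being well above control 5, the highest control. Ifnar1 had 172, 139, 165, 157 and 147 CPM in day 7 grafts 1 to 5, 185, 148, 187, 211 and 149 CPM in day 3 grafts 1 to 5, and 82.7, 81.6, 89.6, 61.5 and 87.3 CPM in controls 1 to 5. Again no graft overlapped with a control. Ifngr2, the signalling chain of the interferon gamma receptor, changed by 1.16 ± 0.12 (adjusted p = 1.93e-06) at day 7 and 1.33 ± 0.12 (adjusted p = 7.45e-07) at day 3, and Ifnar1 by 0.96 ± 0.12 (adjusted p = 1.38e-05) at day 7 and 1.13 ± 0.12 (adjusted p = 4.01e-06) at day 3. Between day 7 and day 3 the differences were -0.17 ± 0.12 (adjusted p = 0.477) for Ifngr2 and -0.17 ± 0.13 (adjusted p = 0.528) for Ifnar1.

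Ifnar2 had 106, 85.6, 102, 89.5 and 102 CPM in day 7 grafts 1 to 5, 116, 124, 129, 155 and 114 CPM in day 3 grafts 1 to 5, and 76.5, 78.2, 72.8, 113 and 80.5 CPM in controls 1 to 5. Every day 3 graft was above every control, although the margin over control 4 was narrow. Ifnar2 changed by 0.22 ± 0.12 (adjusted p = 0.138) at day 7 and 0.61 ± 0.13 (adjusted p = 7.40e-04) at day 3, and without control 4 it was called at day 7 too (adjusted p = 0.00672). Ifngr1 had 193, 178, 207, 177 and 196 CPM in day 7 grafts 1 to 5, 180.0, 176, 204, 196 and 179 CPM in day 3 grafts 1 to 5, and 134, 125, 134, 272 and 244 CPM in controls 1 to 5. Controls 4 and 5 were above all grafts, and controls 1, 2 and 3 below them. Ifngr1, the ligand-binding chain for interferon gamma, was not called, at 0.15 ± 0.19 (adjusted p = 0.524) and 0.13 ± 0.19 (adjusted p = 0.589). Ifnar2, Ifnar1 and Ifngr2 are neighbours at positions 91372783 to 91565623 of chromosome 16 (mm10).

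The ligands themselves were at or near 0 counts in these libraries. None of 21 interferon genes passed the filter. The 18 type I genes held 15 counts in all in the 5 day 7 grafts, 9 in the 5 day 3 grafts and 4 in the 5 controls, with 12 of the 18 at 0 in every library and at most 3 counts of a gene in 1 library. Ifng had 23 counts in day 7 grafts, 10 in day 3 grafts and 33 in controls, and the 2 type III genes had 0. A count of 0 allows a level of up to 3 counts, which was 0.09 to 0.17 CPM per library, and intervals of this kind cover counting error only.

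**Figure D4:**
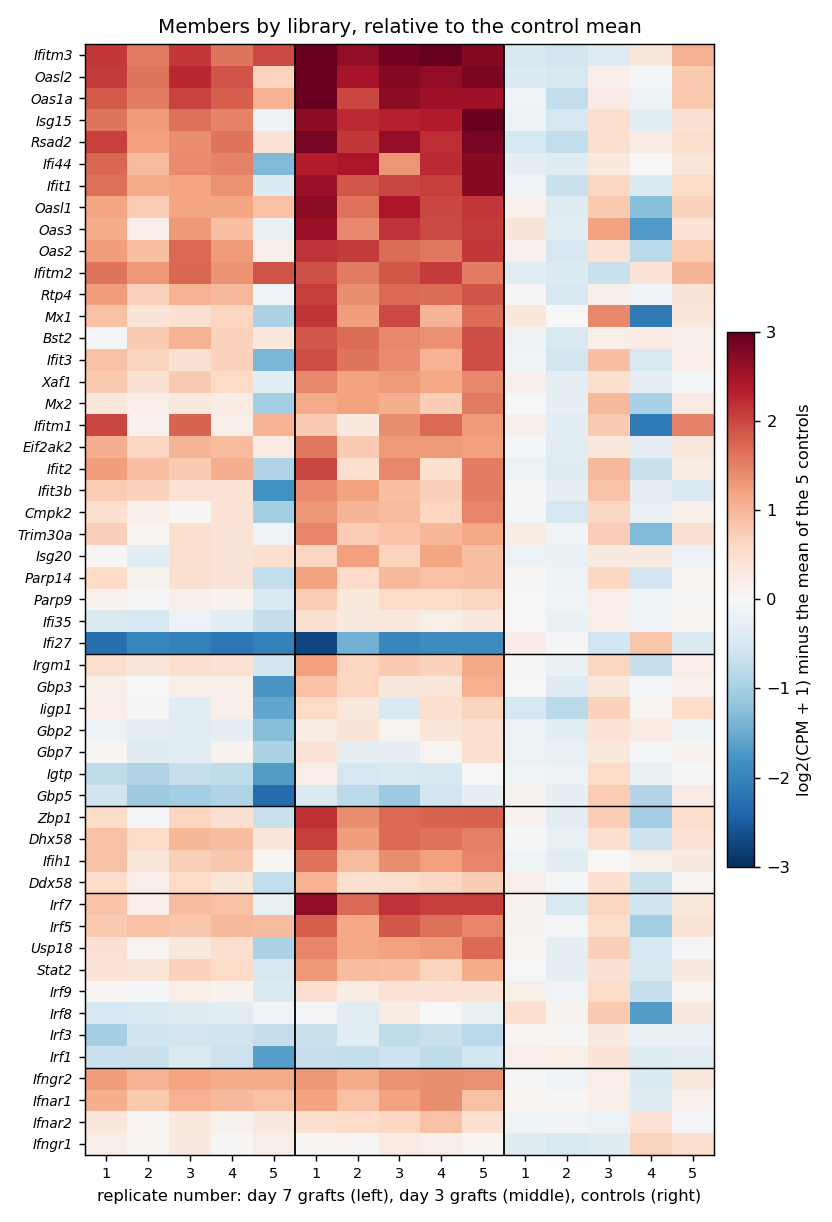
Log2(CPM + 1) of each member in each library minus the mean of the 5 controls (colour, red higher and blue lower, limited to 3 in either direction), with libraries in columns by group and replicate and members in rows by role. The 5 day 3 columns are reddest for effectors and sensors, the column of day 7 graft 5 is paler or bluer than its neighbours, and control 4 is blue for Mx1, Oas3 and Irf8.

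The rest of the pathway was read from lists of related genes. Of 12 genes of JAK-STAT signalling and its feedback, 4 were higher and 3 lower at day 7, and 4 were higher and 2 lower at day 3. The shares of higher genes and the lower ones at day 7 are near those of all tested genes, 32.3% and 28.4% at day 7 and 30.1% higher at day 3. Without control 2, control 4 or day 7 graft 5, 2 were higher at day 7. Over the 26 alternatives the lower count ranged from 0 to 5 at day 7 and from 0 to 3 at day 3, where it was 0 or 1 under 13 of the 15 omissions of 1 library. Socs3, a feedback inhibitor, was higher by 2.27 ± 0.59 (adjusted p = 0.00387) at day 3, and Ube2l6, the enzyme that conjugates Isg15, by 1.49 ± 0.20 (adjusted p = 1.94e-05). Uba7, the enzyme that activates Isg15, was lower by -0.86 ± 0.27 (adjusted p = 0.0133) at day 7, a call that was lost with library totals and on both TPM scales (adjusted p up to 0.338).

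Of 16 genes that sense nucleic acid or relay that signal, 7 were higher and 1 lower at day 7, and 10 were higher and 1 lower at day 3, beside 32.3% higher and 28.4% lower of all tested genes at day 7 and 30.1% and 30.2% at day 3. Without control 4, 4 were lower at each time. Cgas, the cytosolic DNA sensor, was higher by 1.65 ± 0.30 (adjusted p = 2.73e-04) at day 7 and 1.55 ± 0.30 (adjusted p = 5.21e-04) at day 3. Trex1, the exonuclease that clears cytosolic DNA, was higher by 1.72 ± 0.20 (adjusted p = 6.42e-06) at day 3 and lower at day 7 than at day 3 by -0.85 ± 0.18 (adjusted p = 0.0152), a call that was lost without day 7 graft 2 and on both TPM scales (adjusted p up to 0.143). Mavs, the adaptor of the RNA sensors, was lower at day 7, -0.79 ± 0.12 (adjusted p = 5.95e-05), and at day 3, -0.79 ± 0.12 (adjusted p = 6.68e-05).

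Of 12 chemokine and antigen presentation genes that answer to interferon gamma, 11 were tested. At day 7, 9 were lower and 2 not called, and at day 3, 5 were lower and 1 higher. This stands beside 28.4% of all tested genes lower at day 7, and 30.2% lower and 30.1% higher at day 3. The lower count ranged from 5 to 9 at day 7 and from 2 to 7 at day 3 over the 26 alternatives, with 3 at day 3 without control 3, and 2 were higher at day 3 without control 4. The higher one was Cxcl10, a chemokine for T cells that type I interferon also induces, at 1.95 ± 0.64 (adjusted p = 0.0162). Cxcl9, whose induction depends more strictly on interferon gamma, was lower by -1.88 ± 0.42 (adjusted p = 0.00138) at day 7 and -1.07 ± 0.39 (adjusted p = 0.0266) at day 3. The day 3 call was lost without control 3, control 4 or day 3 graft 3 and on both TPM scales (adjusted p up to 0.175). Ciita, the master regulator of MHC class II, was lower by -2.80 ± 0.62 (adjusted p = 0.00135) at day 7 and -3.17 ± 0.66 (adjusted p = 8.21e-04) at day 3. Both T cell and B cell markers were lower in the same grafts. Of 6 conventional dendritic cell markers, 4 were lower at each time. The median log2 fold change of these 6 was -1.45 at day 7 and -1.98 at day 3. The part of T cells, B cells and dendritic cells was not tested.

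A further 36 genes known mainly as type I targets, of which 35 were tested, gave 13 higher and 3 lower at day 7, 21 higher and 2 lower at day 3, and 4 lower at day 7 than at day 3. Of all tested genes, 32.3% were higher and 28.4% lower at day 7, and 30.1% and 30.2% at day 3. Between the graft times, 1.71% were lower at day 7. The higher share at day 7 is near that of all tested genes. The count of 4 ranged from 0 to 24 over the 26 alternatives, with 14 without control 4 and 0 without day 3 graft 3 or day 7 graft 2. Without control 4, 12 were lower at day 7 against control. Ifi204, a sensor of the p200 family, was higher by 2.35 ± 0.46 (adjusted p = 5.23e-04) at day 7 and 3.29 ± 0.48 (adjusted p = 4.45e-05) at day 3. Oas1g was higher by 2.32 ± 0.42 (adjusted p = 2.70e-04) at day 7 and 3.27 ± 0.42 (adjusted p = 1.29e-05) at day 3. Ifi27l2a, a relative of Ifi27, was lower by -2.46 ± 0.29 (adjusted p = 6.36e-06) at day 7 and -1.18 ± 0.30 (adjusted p = 0.00399) at day 3. The members of these lists were not chosen independently of the earlier results of this dataset, so the counts are descriptions.

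Macrophages take up dead cells and debris and express many of these genes. All 10 markers were higher at day 7 and all 10 at day 3, with median log2 fold changes of 2.84 and 2.78. Between day 7 and day 3 limma-voom called 0 of 10 (2 at an unadjusted p under 0.05). That is near the background, where 3.18% of all tested genes were higher and 1.71% lower. The 10 markers changed by -1.06 to 0.94 on the log2 scale there, with a median of 0.22. Their mean log2(CPM + 1) was 8.56 to 9.29 in day 7 grafts, 8.20 to 9.17 in day 3 grafts and 5.43 to 7.35 in controls, with the highest control in control 5. Day 7 graft 5 had the highest macrophage score of all 15 libraries, 9.29, and an effector score of 4.98, the lowest of the grafts. Of 8 neutrophil markers, 5 were higher at each time, and 3 at day 7 without control 2, control 3 or control 4. Fibroblast markers were higher for 5 of 6 at day 7 (median log2 fold change 1.95) and 4 of 6 at day 3 (median 1.48), with scores of 10.18 to 10.6 in day 7 grafts, 9.10 to 10.2 in day 3 grafts and 7.26 to 9.18 in controls. Endothelial markers were higher for 4 of 6 at each time, with scores of 5.95 to 6.79 in day 7 grafts, 5.75 to 7.36 in day 3 grafts and 5.49 to 6.08 in controls. Of all tested genes, 32.3% were higher and 28.4% lower at day 7, and 30.1% and 30.2% at day 3. Of 5 plasmacytoid dendritic cell markers tested, 2 were higher and 2 lower at each time, which is near these shares. Pld4 was higher by 1.06 ± 0.19 (adjusted p = 2.08e-04) at day 7 and 1.04 ± 0.19 (adjusted p = 2.43e-04) at day 3, and Tcf4 by 0.59 ± 0.11 (adjusted p = 3.95e-04) at day 7 and 0.59 ± 0.11 (adjusted p = 4.06e-04) at day 3. Siglech was lower by -3.68 ± 0.63 (adjusted p = 1.67e-04) at day 7 and -5.67 ± 0.86 (adjusted p = 6.04e-05) at day 3, and Ccr9 by -3.01 ± 1.17 (adjusted p = 0.0369) at day 7 and -3.01 ± 1.18 (adjusted p = 0.0382) at day 3. The lower count ranged from 1 to 3 at day 7 and from 1 to 4 at day 3 over the 26 alternatives, with 1 at both times without control 1, 2, 3 or 5 and the highest count without control 4. The part of macrophages, neutrophils, fibroblasts and endothelial cells in the effector levels was not tested.

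**Figure D5:**
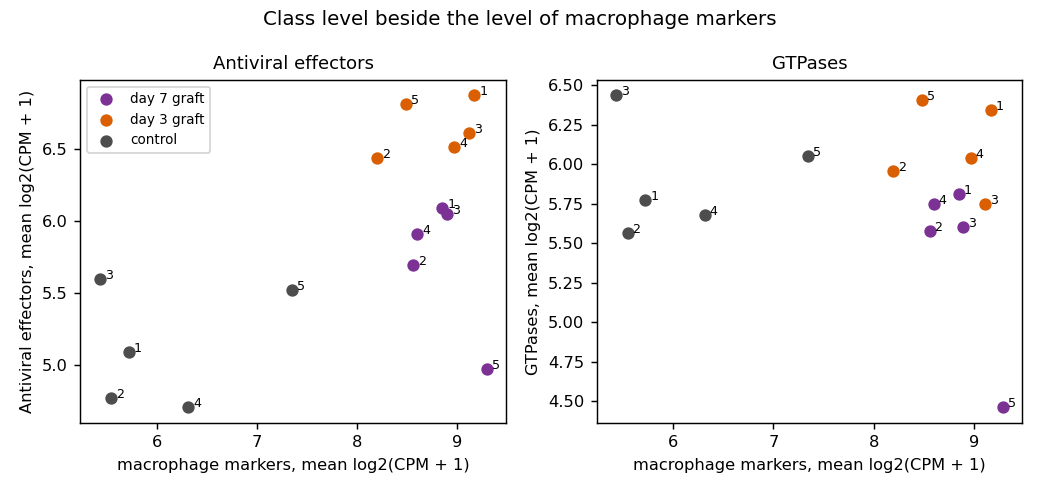
Mean log2(CPM + 1) of the 28 antiviral effectors (left) and of the 7 GTPases (right) on the vertical axes against that of 10 macrophage markers on the horizontal axes, one point per library with its replicate number. On the horizontal axis day 3 grafts span 8.20 to 9.17 and day 7 grafts 8.56 to 9.29, which overlap. The effector scores of day 3 grafts, 6.43 to 6.87, lie above those of day 7 grafts, 4.98 to 6.09.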

How the data were processed

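Per the labels' protocols, Trizol and an RNeasy kit yielded the RNA, from which stranded mRNA libraries were read as pairs of 151 bp. Trimming, alignment and counting tools in the submitters' processing notes are cutadapt 2.8, STAR 2.7.1a and RSEM 1.3.1, with mm10 as the build; the annotation release and the strand setting of the counting are not given in the sources used here. Per the file headers, the authors deposited TPM, RPKM and estimated count values per gene and sample. The estimated counts are whole but written with digit separators, which were removed on reading. They were tested with voom in limma 3.58.1 (R 4.3.3), with all 15 samples in 1 fit of 3 group means. No count model was run. The TPM served for levels between genes and for alternative fits; the RPKM was not used. A gene entered the fit with 15 counts or more over all samples and, in 5 or more of them, 0.389 CPM or more, which is 10 counts in a library of median size. Scaling factors, by trimmed means of M-values (trims of 30% and 5%), ranged from 0.746 to 1.14.

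Scores are means of log2(CPM + 1) over a list. No 2 libraries of a group agreed within counting noise. The members, the other gene lists, the marker lists and the rule for naming genes were chosen with earlier results of these data known. Values per sample are given, in each role and comparison, for up to 3 called members with the highest and up to 3 with the lowest change and 1 group averaging 2 CPM or more, and for the 4 receptors. Of 196 genes on the other lists, 193 were found. One gene named by the rule is not reported here. The fit was tested on simulated counts. Alternatives changed the scaling, the filter, the samples in the fit, the test, the sample weights and a replicate block, and left out each sample in turn.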

Additional observations from a re-analysis of the deposited data

Results flagged for a closer look

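Each of the 51 members was checked in each group for a sample whose gap to its nearest neighbour took up an unusual part of the group's range (Dixon's test at the 95% level, groups of 5). Of 153 such groups 13 stood out, where chance alone gives about 1 in 20.

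Day 7 graft 5 was the low sample in 7 of them. It had 2.90 CPM of Ifit3b where the nearest day 7 graft had 17.4 CPM. Mx2 stood at 3.46 CPM, with the nearest at 9.37 CPM. Irf1 was at 35.8 CPM against 72.0 CPM in the nearest. Among the GTPases it had 32.6 CPM of Gbp2 (nearest 63.4 CPM), 13.96 CPM of Gbp3 (nearest 49.3 CPM), 21.4 CPM of Igtp (nearest 37.2 CPM) and 48.5 CPM of Irgm1 (nearest 92.9 CPM).

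Control 3 was the high control for Ifit3b, at 24.2 CPM with the nearest at 13.2 CPM, and for Igtp, at 104.9 CPM with the nearest at 68.2 CPM. Control 4 was low for Ifnar1, at 61.5 CPM with the nearest at 81.6 CPM, and high for Ifnar2, at 112.6 CPM with the nearest at 80.5 CPM. Day 3 graft 2 was high for Irf3, at 40.8 CPM with the nearest at 31.4 CPM, and low for Ifngr2, at 94.97 CPM with the nearest at 110.3 CPM.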

How the results depend on the processing

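Each change and class count of the 51 members was recomputed under 26 alternatives, of which 15 left out 1 sample. The counts of the related and marker lists and the genes named from them were put through the same alternatives, a step chosen after seeing the data. The planned quasi-likelihood and Wald tests of the counts were not run. The deposited counts carry digit separators and were by choice not given to a count model. No called change reversed its direction; 97 uncalled values over 20 genes changed sign, none with a size above 0.35 on the log2 scale in the fit reported. The cause of the moves below was not tested.

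With all members, lower calls at day 7 against day 3 numbered 18, and 10 with library totals, 4 on log2(TPM + 1) or log2(TPM + 0.1) and 32 with sample quality weights. For effectors these were 12, and 5, 1 and 20, and for GTPases 1, and 0, 0 and 3. For regulators they were 5, and 3 on both TPM scales, 9 with quality weights and 8 with only the 2 groups compared. Lower calls at day 7 against control, 6 over all members and 2 in each class, were 1 over all members, 1 for effectors, 0 for GTPases and 0 for regulators on both TPM scales, and 1 for effectors with library totals. The median log2 change of all genes against control was 0.33 or 0.43 at day 7 and 0.22 or 0.28 at day 3 on TPM, at pseudocounts of 1 and 0.1, and 0.12 at day 7 with library totals, beside 0.03 at day 7 and -0.01 at day 3 in the fit reported. On log2(TPM + 1), 46.1% of tested genes were higher and 16.1% lower at day 7, and 39.3% and 18.5% at day 3, where the fit reported gave 32.3% and 28.4% at day 7 and 30.1% and 30.2% at day 3. The regulator median became 0.60 or 0.61 at day 7 and 1.32 or 1.35 at day 3 on the TPM scales, and the effector median 1.06 at day 7 on log2(TPM + 0.1). Higher regulators at day 7 numbered 8 on both TPM scales and 9 with quality weights, which also gave 27 higher members and 1 higher GTPase at day 7. Higher GTPases at day 3 were 1, and 3 on TPM, 4 with weights and 2 with only the groups compared, with 1 lower GTPase under weights. Lower regulators at day 3 were 1 on TPM. Without control 4, day 3 graft 1 and day 7 graft 5 together, 6 members were lower at day 3, with 3 GTPases higher and 2 lower, and 2 GTPases were lower at day 7 than at day 3.

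Over the omissions of 1 sample, lower members at day 7 against day 3 ranged from 6 to 27, effectors from 3 to 18, GTPases from 0 to 2 and regulators from 3 to 7. At day 3 against control, lower members ranged from 3 to 5, lower GTPases from 0 to 1 and higher GTPases from 1 to 2.

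Samples share replicate numbers across groups, and the labels do not say whether the numbers pair them. Correlations of same-numbered deviations from the group means ranged from -0.18 to 0.34. Differently numbered samples were not correlated, so these values cannot decide whether the samples are paired. With a replicate block, 7 effectors and 0 GTPases were lower at day 7 than at day 3. No other count of the members moved by over 1.5 times. Some counts of the other type I targets and of neutrophil, natural killer cell, T cell and skeletal muscle markers did. Depth did not limit the members, which had at least 43 counts in every library, whereas the interferon ligands were too rare to test.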

Other observations

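The libraries at the extremes of a group were often the same ones from gene to gene. Day 7 graft 5 was the lowest day 7 graft for 21 of 28 effectors, 7 of 7 GTPases and 9 of 16 regulators. Day 3 graft 2 was the lowest day 3 graft for 30 of 51 members, 12 of 16 regulators among them. Control 3 was the highest control for 35 of 51 members, including 7 of 7 GTPases, and control 4 was the lowest for 26 of 51, including 12 of 16 regulators. Control 1 was neither the highest nor the lowest control for any member.

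The antisense gene Dhx58os, which overlaps with Dhx58, averaged 1.56 ± 0.343 CPM in day 7 grafts, 1.27 ± 0.516 CPM in day 3 grafts and 0.337 ± 0.266 CPM in controls (SD, n = 5). In limma-voom it was higher by 2.40 ± 0.47 (adjusted p = 5.03e-04) at day 7 and 2.05 ± 0.48 (adjusted p = 0.00211) at day 3, and the strand setting of the counting is not stated.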
